A study of Mus musculus with 28 samples.

Results

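Umod, Slc12a1, Kcnj1, Bsnd, Egf and Ppp1r1b, genes that mark the thick ascending limb of the loop of Henle, were followed through kidney RNA sequencing of injured mice. They were chosen by symbol, and each of the 6 matched 1 gene among the 53392 in the quantification files. All 6 passed the filter on low counts in every fit. The labels place 28 samples in 10 groups, all male FVB mice. In each of 2 cell types there were sham mice without injury, mice with ischemic kidney injury and no treatment (IRI), and injured mice that received scrambled miRNA (SCB), exosomes (EXO) or a mimic of miR-486-5p. Endothelial cells had been selected from digested kidneys on CD31+ microbeads, and proximal tubular cells had been collected by microdissection. The extraction notes give 3 mice to each group, but each mimic group holds 2 libraries, the number that the design text states. Per-library files were analysed for the 3 treated groups of both cell types, 16 libraries in all (3 scrambled, 3 exosome and 2 mimic libraries per cell type). All 16 came from injured mice, so the scrambled-miRNA libraries are the controls. The sham and untreated groups, which the labels describe as re-analyses of earlier samples, entered only through the authors' deposited comparison tables. The mouse age and the length of ischemia are not given in the sources used here.

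The thick ascending limb reabsorbs salt without water, which dilutes the tubular fluid and builds the gradient that concentrates urine. Slc12a1 encodes NKCC2, the apical sodium-potassium-chloride cotransporter that loop diuretics block. Kcnj1 encodes ROMK, the apical channel that returns potassium to the lumen so that the cotransporter can keep running. Bsnd encodes barttin, a membrane protein that salt reabsorption in this segment requires. Umod encodes uromodulin, the most abundant protein of normal urine, and Egf encodes the precursor of epidermal growth factor, which is made in this segment and in the distal convoluted tubule. Ppp1r1b encodes DARPP-32, an inhibitor of protein phosphatase 1 that is switched on by cyclic AMP signalling. ROMK and barttin also occur in segments beyond the thick ascending limb.

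On the GRCm38 assembly with GENCODE M21, Umod lies at chr7:119462711-119479282 on the minus strand, Slc12a1 at chr2:125152505-125230002 on the plus strand, and Kcnj1 at chr9:32372493-32399197 on the plus strand. Bsnd lies at chr4:106483456-106492283 and Egf at chr3:129677565-129755316, both on the minus strand, and Ppp1r1b at chr11:98348404-98357796 on the plus strand. All are protein-coding genes on separate chromosomes, with 1 annotated transcript for Bsnd and up to 9 for Egf.

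Slc12a1 has 3 full-length transcripts of 27 exons each that differ in which of 3 neighbouring versions of coding exon 5 they carry. These 3 exons are shown because the libraries divided Slc12a1 reads among them differently, as described further on. As background, this exon encodes part of a membrane-spanning segment that shapes how tightly the cotransporter binds its ions. In genomic order the exons lie at chr2:125165495-125165590 (upstream version), chr2:125166123-125166218 (middle version) and chr2:125166673-125166768 (downstream version), each 96 bases on the plus strand of GRCm38. They are printed 5′ to 3′ from the GENCODE transcripts, with capitals at the positions where the 3 are not all the same.
Slc12a1 upstream exon 5: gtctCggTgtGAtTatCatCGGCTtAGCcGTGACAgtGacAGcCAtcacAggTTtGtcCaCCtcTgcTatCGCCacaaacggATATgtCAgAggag
Slc12a1 middle exon 5: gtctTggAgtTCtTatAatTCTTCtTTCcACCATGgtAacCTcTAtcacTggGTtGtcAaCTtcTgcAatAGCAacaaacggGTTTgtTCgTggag
Slc12a1 downstream exon 5: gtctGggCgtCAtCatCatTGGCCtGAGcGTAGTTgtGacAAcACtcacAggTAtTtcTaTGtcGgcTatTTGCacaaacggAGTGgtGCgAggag
The 3 exons share 51 of 96 positions. The pair most alike was the upstream and downstream versions, at 68.8% identity, and the pair least alike was the middle and downstream versions, at 58.3%. The transcript with the upstream version also starts 95 bases further upstream in its first exon, and the one with the downstream version ends 3 bases earlier in its last exon, so reads from the ends can also tell these transcripts apart. How much of a share rests on exon 5 was not measured.

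The 16 libraries held 8.27 to 25.3 M gene-assigned reads, with the 4 mimic libraries the deepest. The cell type labels were checked against marker lists. All 10 endothelial markers were higher in the CD31+ libraries, where their summed level ran from 337 to 637 TPM (transcript abundance scaled by transcript length and depth), against 24.4 to 59.0 in the tubular libraries. All 10 proximal tubule markers were higher in the tubular libraries, at 1286 to 4548 TPM against 176 to 1613. All 16 distal tubule and collecting duct markers (225 to 908 TPM in CD31+ against 60.1 to 236 in tubular libraries) and all 5 podocyte markers (188 to 340 TPM against 1.61 to 27.9) were also higher in the CD31+ libraries, so these held RNA of more than the labelled cell type. Log2 differences toward CD31+ cells were large for Cldn5, Ehd3, Cdh5 and Kdr among endothelial markers (4.35 to 5.24), Nphs1, Podxl and Wt1 among podocyte markers (4.92 to 5.43) and Trpv5, Scnn1b, Hsd11b2 and Fxyd4 among distal markers (2.66 to 2.73). Those toward tubules were large for Miox, Slc7a13, Pck1 and Slc5a12 among proximal markers (-3.17 to -3.03). Of the 6 tubule injury markers, Lcn2, Spp1, Vcam1 and Sox9 were higher in CD31+ libraries, by 2.39 to 4.44, and Havcr1 at -0.22 ± 0.80 and Krt20 at 1.78 ± 1.99 were not called.

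All 6 thick ascending limb genes were higher in the CD31+ libraries than in the tubular libraries. Uromodulin led: Umod reached 3505 to 11617 TPM, with a median of 6736, in the CD31+ libraries and 86.6 to 401 TPM, with a median of 191, in the tubular libraries. In the first scrambled CD31+ library Umod-202, Umod-203 and Umod-205, of 419, 525 and 584 bases, held 868, 597 and 579 of its 3505 TPM. These short transcripts drew 3.74, 4.14 and 4.89% of its Umod reads. Over protein-coding transcripts alone, Umod-202 included, Umod ran from 2329 to 7629 TPM in CD31+ and from 59.8 to 282 TPM in tubular libraries. The 6 genes together took 0.847 to 4.67% of all reads in a CD31+ library and 0.0458 to 0.147% in a tubular library. The ranges of the 2 cell types did not overlap for Umod, Slc12a1, Kcnj1, Bsnd or Ppp1r1b. Of the 17143 genes tested, 18.6% had ranges that did not overlap, and 13.9% had all CD31+ libraries above all tubular ones. Egf was the exception, since its lowest CD31+ library, at 12.3 TPM, fell within the tubular range of 2.12 to 66.7 TPM.

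In edgeR's quasi-likelihood test over all 16 libraries, with the 3 treatments weighted equally and Benjamini-Hochberg adjustment over 17143 genes, all 6 members were higher in CD31+ cells. Of all genes tested, 66.2% passed at an adjusted p of 0.05 and 36.3% passed as higher in CD31+ cells. The log2 difference was 5.01 ± 0.37 (SE) for Umod, a 32.3-fold difference with adjusted p = 4.291e-08. It was 4.94 ± 0.45 for Slc12a1 (30.8-fold) and 4.95 ± 0.40 for Ppp1r1b (30.9-fold). It was smaller for Egf at 3.68 ± 0.57 (12.8-fold), for Bsnd at 3.15 ± 0.31 (8.85-fold) and for Kcnj1 at 3.12 ± 0.27 (8.68-fold). The adjusted p of these 5 ran from 1.043e-07 to 5.739e-05. The median log2 difference was 4.31 over the 6 members and 0.06 over all genes. In bulk RNA, fewer cells of a type and less RNA per cell cannot be told apart.

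**Figure D1:**
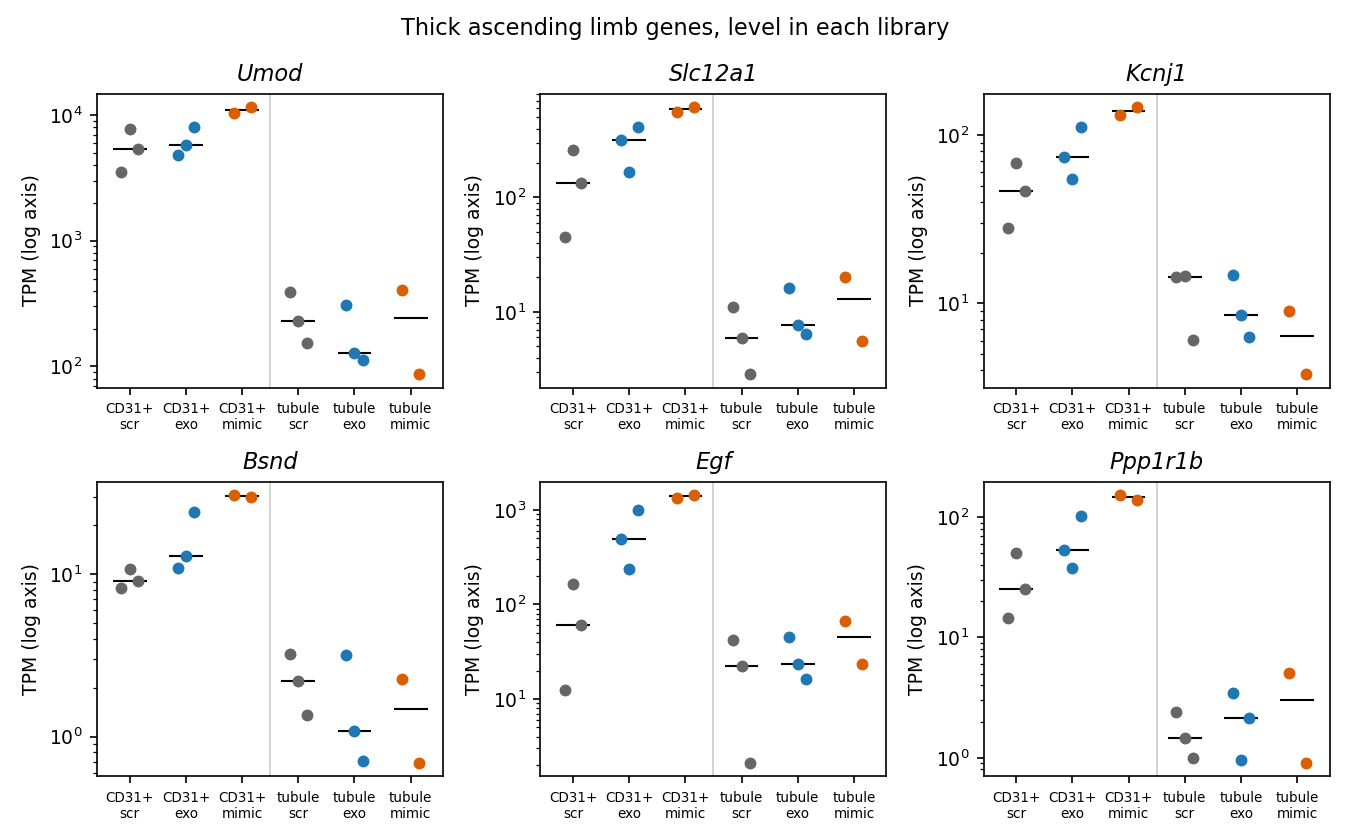
Level of each of the 6 genes in every library, in TPM on a log axis, for CD31+ and tubule libraries given scrambled miRNA (scr), exosomes (exo) or mimic; points are libraries and bars are group medians. In CD31+ cells the mimic libraries lie above every scrambled and exosome library for all 6 genes, and in tubules the groups overlap.

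Within the CD31+ libraries the same order held for all 6 genes: the 2 mimic libraries lay above all exosome and all scrambled libraries. The same separation was seen in 8.23% of the 16316 genes tested. In edgeR's test none of the 6 passed in mimic against scrambled miRNA, where 0% of these genes passed, although all 6 had an unadjusted p under 0.05 beside 19.5% of all genes. With DESeq2 all 6 were called in that comparison, among 1355 genes (8.3%). The median log2 difference was 2.02 over the members and 0.01 over all genes. Exosomes against scrambled miRNA again gave no call among the members and 0% of genes. There, 5 of the 6 had an unadjusted p under 0.05 beside 11.4% of all genes, and DESeq2 called 3 (Bsnd, Egf and Ppp1r1b) among 412 genes (2.53%). The median log2 difference was 1.32 over the members and 0.02 over all genes.

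Egf, the growth factor precursor, differed most. It stood at 12.3, 166 and 61.1 TPM in the scrambled CD31+ libraries, at 492, 234 and 993 TPM with exosomes, and at 1350.5 and 1423 TPM with mimic. The 3 treatments did not overlap, and the scrambled libraries spanned a 13.4-fold range among themselves. The share of all genes whose 3 treatments separate in this way was not counted. The log2 difference from scrambled miRNA was 3.00 ± 0.80 with exosomes (adjusted p = 0.217) and 4.04 ± 0.87 with mimic (adjusted p = 0.06511). The second scrambled library held the most Egf of its group, and without it these log2 differences were 3.99 and 5.03. Without the third exosome library the exosome difference was 2.30. Over all alternatives, described further on, the mimic difference ran from 3.50 to 5.03.

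Slc12a1, the cotransporter, was at 45.3, 261 and 133 TPM in the scrambled CD31+ libraries, at 319.9, 169 and 416 TPM with exosomes, and at 561 and 619 TPM with mimic. The scrambled and exosome ranges overlapped, because the second scrambled library exceeded the second exosome library. The log2 difference was 1.44 ± 0.57 with exosomes (adjusted p = 0.3875) and 2.17 ± 0.62 with mimic (adjusted p = 0.1152). Without the second scrambled library they were 2.04 and 2.76. Over all alternatives, described further on, they ran from 0.95 to 2.04 with exosomes and from 1.67 to 2.76 with mimic.

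Umod differed least of the 6. It stood at 3505, 7737 and 5339 TPM in the scrambled CD31+ libraries, at 4850.4, 5735 and 8029 TPM with exosomes, and at 10397 and 11617 TPM with mimic. The first and second exosome libraries lay within the scrambled range, and the third lay above it. Against scrambled miRNA its log2 difference was 0.65 ± 0.37 with exosomes (adjusted p = 0.5683) and 1.15 ± 0.41 with mimic (adjusted p = 0.1746).

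Kcnj1, the potassium channel, was at 28.0, 68.4 and 46.5 TPM in the scrambled CD31+ libraries, at 73.9, 55.3 and 112 TPM with exosomes, and at 132 and 147 TPM with mimic. Again 1 scrambled library exceeded 1 exosome library. The log2 difference was 1.16 ± 0.37 with exosomes (adjusted p = 0.2732) and 1.72 ± 0.40 with mimic (adjusted p = 0.07755).

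Bsnd, the barttin gene, had close scrambled values of 8.20, 10.8 and 9.09 TPM in the CD31+ libraries. It stood at 10.8, 13.0 and 24.0 TPM with exosomes and at 30.5 and 29.7 TPM with mimic. Its lowest exosome library was level with its highest scrambled library. Against scrambled miRNA its log2 difference was 1.20 ± 0.33 with exosomes (adjusted p = 0.2359) and 1.87 ± 0.36 with mimic (adjusted p = 0.05454).

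Ppp1r1b, the phosphatase inhibitor, was at 14.6, 50.4 and 25.1 TPM in the scrambled CD31+ libraries, at 53.7, 37.5 and 103 TPM with exosomes, and at 151 and 139.7 TPM with mimic. Most of this level came from transcripts not annotated as protein-coding. Over protein-coding transcripts alone it was 4.77, 19.4 and 7.33 TPM with scrambled miRNA. It was then 19.4, 16.8 and 38.1 TPM with exosomes, and 61.3 and 58.3 TPM with mimic. The scrambled and exosome ranges overlapped. The log2 difference was 1.55 ± 0.48 with exosomes (adjusted p = 0.2725) and 2.57 ± 0.53 with mimic (adjusted p = 0.06117).

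Mimic against exosomes in CD31+ cells gave positive log2 differences for all 6 genes, from 0.50 ± 0.41 for Umod to 1.04 ± 0.81 for Egf. None passed (adjusted p = 0.9883 for each), none had an unadjusted p under 0.05, and 0% of genes passed, with 4.05% of 16316 at an unadjusted p under 0.05. DESeq2 called none of the 6 and 0.0306% of genes.

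Other marker lists moved across the same CD31+ libraries, and their part in these differences was not tested. The summed level of the 6 tubule injury markers was 7952 to 10997 TPM in the scrambled libraries, 708 to 4862 TPM with exosomes and 756 to 1131 TPM with mimic. Every scrambled library thus lay above every treated library, while the exosome and mimic ranges overlapped. Most of this sum came from Spp1 alone, which averaged 9136 TPM with scrambled miRNA, 2110 TPM with exosomes and 923 TPM with mimic. The 16 distal tubule and collecting duct markers summed to 225 to 309 TPM with scrambled miRNA, 386 to 755 TPM with exosomes and 841 to 908 TPM with mimic, in the same order as the members. Proximal tubule markers summed to 508 to 1058 TPM with scrambled miRNA, 214 to 1613 TPM with exosomes and 176 to 218 TPM with mimic. The 10 endothelial markers, at 383 to 633, 337 to 396 and 456 to 637 TPM in the same order, and the 5 podocyte markers, at 241 to 340, 188 to 259 and 275 to 314 TPM, overlapped between scrambled miRNA and each treatment. In mimic against scrambled miRNA all 16 distal and collecting duct markers had positive log2 differences, with a median of 1.65, and none passed.

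**Figure D2:**
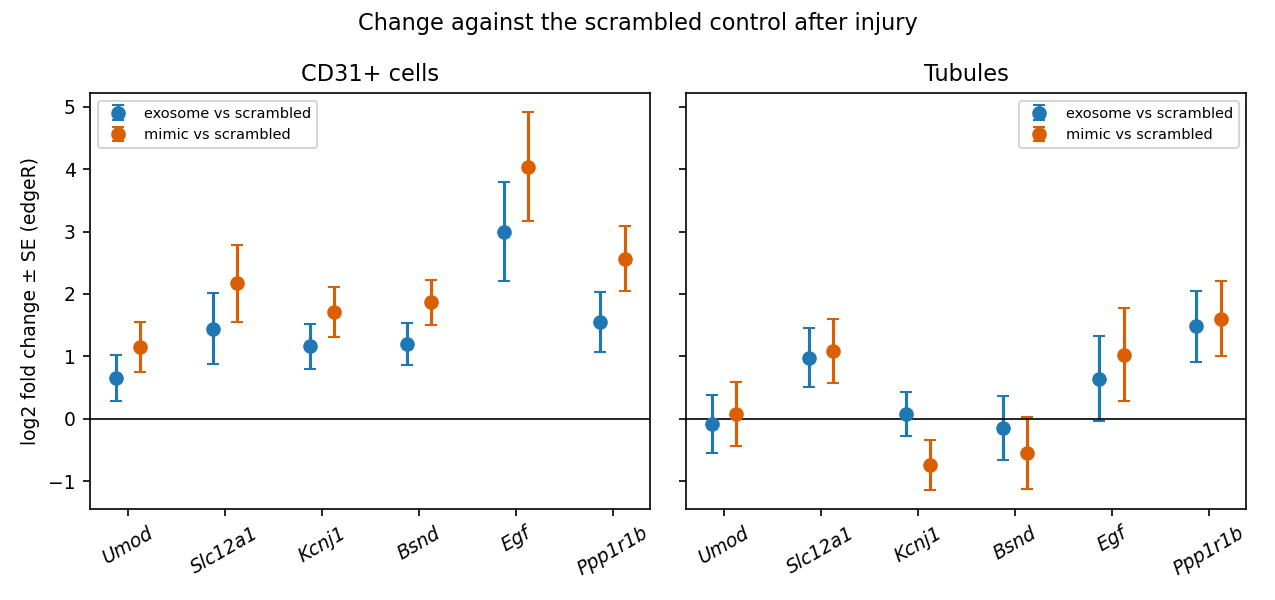
Log2 fold change of each gene against scrambled miRNA, with its standard error, for exosomes and mimic in CD31+ cells (left) and tubules (right). In CD31+ cells all 12 values are positive, from 0.65 to 4.04, and in tubules they run from -0.75 to 1.60.

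In the tubular libraries the 6 genes were low, and neither exosomes nor mimic gave all 6 a difference from scrambled miRNA in the same direction. None passed in exosomes against scrambled miRNA, where 5.13% of 14913 genes passed, and 1 of the 6 (Ppp1r1b) had an unadjusted p under 0.05 beside 24.8% of all genes. None passed in mimic against scrambled miRNA (0.0201% of genes, 3 in all; Ppp1r1b again had an unadjusted p under 0.05, beside 16.3% of all genes) or in mimic against exosomes (0% of genes, with 12.4% at an unadjusted p under 0.05 and no member among them). DESeq2 called none of the 6 in any of these 3, where it called 12.3%, 5.18% and 1.6% of all genes. The members' median log2 difference was 0.36, 0.56 and 0.11 in the 3 comparisons, and that of all genes lay between -0.03 and -0.02.

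Slc12a1 in tubules was at 11.1, 5.96 and 2.86 TPM with scrambled miRNA, at 16.3, 7.66 and 6.45 TPM with exosomes, and at 20.1 and 5.61 TPM with mimic. Against scrambled miRNA its log2 difference was 0.98 ± 0.47 with exosomes (adjusted p = 0.2383) and 1.08 ± 0.51 with mimic (adjusted p = 0.3402), and the groups overlapped. Umod was at 387, 228 and 154 TPM with scrambled miRNA, at 310.2, 128 and 112 TPM with exosomes, and at 401 and 86.6 TPM with mimic. Its log2 difference was -0.09 ± 0.46 with exosomes and 0.08 ± 0.51 with mimic, both smaller than their standard errors.

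Egf in tubules was at 42.0, 22.4 and 2.12 TPM with scrambled miRNA, at 44.8, 23.5 and 16.2 TPM with exosomes, and at 66.7 and 23.5 TPM with mimic. The third scrambled library, with 179.9 Egf reads, stood 7.65-fold below the next library. The log2 difference was 0.64 ± 0.68 with exosomes and 1.03 ± 0.75 with mimic.

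Kcnj1 in tubules was at 14.4, 14.6 and 6.05 TPM with scrambled miRNA, at 14.8, 8.55 and 6.27 TPM with exosomes, and at 8.98 and 3.79 TPM with mimic. Bsnd was at 3.21, 2.20 and 1.35 TPM, at 3.19, 1.09 and 0.711 TPM, and at 2.25 and 0.691 TPM in the same order. These are the 2 members whose mimic difference was negative, at -0.75 ± 0.40 for Kcnj1 (adjusted p = 0.3912) and -0.55 ± 0.57 for Bsnd (adjusted p = 0.6803). Ppp1r1b was at 2.41, 1.46 and 0.995 TPM with scrambled miRNA, at 3.46, 0.957 and 2.16 TPM with exosomes, and at 5.09 and 0.911 TPM with mimic. It rested on 8 to 233 reads per tubular library, with log2 differences of 1.48 ± 0.56 with exosomes (adjusted p = 0.1449) and 1.60 ± 0.60 with mimic (adjusted p = 0.2356). Over protein-coding transcripts alone Ppp1r1b ran from 0.105 to 2.00 TPM across the tubular libraries.

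The 2 tubular mimic libraries stood apart from each other. The first held the highest level of Umod, Slc12a1, Egf and Ppp1r1b among the 8 tubular libraries, and the second held the lowest level of Umod, Kcnj1, Bsnd and Ppp1r1b. Of the 14913 genes tested, 12.9% were highest in the first and 21% lowest in the second. Without the first mimic library the log2 difference of Umod between mimic and scrambled miRNA was -0.997 in place of 0.08.

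Whether a treatment acted differently on the members in the 2 cell types was tested as an interaction, the difference in CD31+ cells less the difference in tubules. None of the 6 passed for exosomes or for mimic, and 0% of 17143 genes passed in either, with 7.78% and 15.5% of genes at an unadjusted p under 0.05. For mimic, 3 members had an unadjusted p under 0.05. They were Kcnj1 at 2.45 ± 0.64 (adjusted p = 0.1403), Bsnd at 2.42 ± 0.74 (adjusted p = 0.1678) and Egf at 3.00 ± 1.31 (adjusted p = 0.2935). DESeq2 called Kcnj1 and Bsnd for mimic, among 609 genes (3.55%). For exosomes no member had an unadjusted p under 0.05, DESeq2 called none of the 6 and 0.198% of genes, and Egf had the largest value at 2.32 ± 1.16.

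The ratio of 2 members within a library does not depend on its depth or scaling. These ratios were formed after the levels were seen and are given as a description, without a count of other gene pairs that separate alike. The TPM ratio of Umod to Slc12a1 was 77.3, 29.7 and 40.3 in the scrambled CD31+ libraries, 15.2, 34.0 and 19.3 with exosomes, and 18.5 and 18.8 with mimic. In tubules it was 35.0, 38.2 and 53.7 with scrambled miRNA, 19.0, 16.7 and 17.4 with exosomes, and 19.9 and 15.4 with mimic. In both cell types every mimic library lay below every scrambled library. The exosome libraries did so in tubules, while in CD31+ cells 1 exosome library lay within the scrambled range.

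The TPM ratio of Egf to Slc12a1 was 0.272, 0.635 and 0.461 in the scrambled CD31+ libraries, 1.54, 1.39 and 2.39 with exosomes, and 2.41 and 2.30 with mimic. Scrambled libraries thus held less Egf than Slc12a1 transcript, and every exosome and mimic library held more when all annotated transcripts were summed. Part of the Egf level came from Egf-207, a short transcript of 478 bases with a retained intron, which held 67.1 of the 234 TPM in the second exosome library on 2.27% of its Egf reads. Over protein-coding transcripts alone the Egf to Slc12a1 ratio was 0.276, 0.509 and 0.338 with scrambled miRNA, 1.13, 0.972 and 1.58 with exosomes, and 1.58 and 1.58 with mimic, so the second exosome library then held slightly less Egf than Slc12a1. Summed over all annotated transcripts, the tubular ratio was 3.80, 3.77 and 0.741 with scrambled miRNA. It was 2.74, 3.07 and 2.51 with exosomes, and 3.31 and 4.18 with mimic, so the groups overlapped. The ratio of Kcnj1 to Slc12a1 was 0.231 to 0.617 in CD31+ libraries. In tubules it was 1.30 to 2.45 with scrambled miRNA, 0.903 to 1.12 with exosomes and 0.446 to 0.676 with mimic, with no overlap between treatments. The ratio of Bsnd to Slc12a1 was 0.0339 to 0.181 in CD31+ libraries. In tubules it was 0.290 to 0.472 with scrambled miRNA, and lower at 0.110 to 0.195 with exosomes and 0.1115 to 0.1231 with mimic. The ratio of Ppp1r1b to Slc12a1 was alike in the 2 cell types, at 0.168 to 0.322 in CD31+ and 0.125 to 0.348 in tubular libraries. Over protein-coding transcripts alone it was lower, at 0.0555 to 0.110 in CD31+ and 0.0366 to 0.1165 in tubular libraries. All these ratios share Slc12a1 as their denominator, so they are not separate observations. How often ratios of other gene pairs separate the treatments in this way was not counted.

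**Figure D3:**
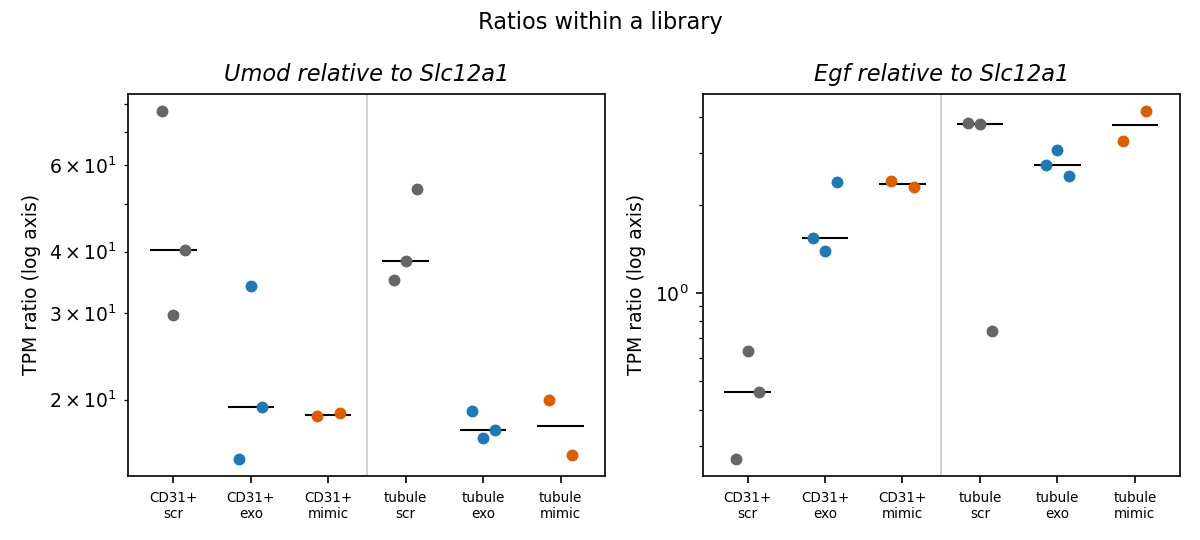
TPM of Umod (left) and Egf (right) divided by the TPM of Slc12a1 in the same library, on log axes; points are libraries and bars are group medians. The plotted Umod ratio is above 29 in all 6 scrambled libraries. Over protein-coding transcripts alone (not plotted) it is 20.1 to 52.3 in scrambled CD31+ and 23.3 to 35.4 in scrambled tubular libraries. The Egf ratio in CD31+ cells is below 1 with scrambled miRNA and above 1 with exosomes and mimic. The exception is the second exosome library, which falls to 0.972 over protein-coding transcripts alone (not plotted).

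The 3 Slc12a1 transcripts whose exon 5 is printed above were divided differently in the 2 cell types. As background, the downstream version is known from the medullary part of the limb, the upstream version from the cortical part and the macula densa, and the middle version from both. In CD31+ libraries the downstream version held 45.2 to 59.7% of the reads of the 3 transcripts, with a median of 49.3%, and the upstream version held 13.4 to 24.8%, with a median of 16.3%. In tubular libraries the medians were 14.1% for the downstream version and 49.5% for the upstream version. The downstream version ran from 0 to 74.8% in tubular libraries, a range that overlaps the CD31+ one. It was at most 22.3% with scrambled miRNA and 33.6% with exosomes there, and 7.85 and 74.8% with mimic. All 8 tubular libraries had a larger share of the upstream version, at 25.3 to 66.3%, than any CD31+ library.

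Among the tubular libraries the share of the upstream version was 63.9, 65.6 and 66.3% with scrambled miRNA, 49.6, 33.1 and 49.4% with exosomes, and 42.1 and 25.3% with mimic. No exosome or mimic library reached the scrambled range. In CD31+ libraries the same shares were 13.6, 13.4 and 24.8% with scrambled miRNA, 14.8, 18.7 and 21.1% with exosomes, and 16.9 and 15.7% with mimic, which overlapped. The second tubular mimic library departed from the others: the downstream version held 74.8% there and the middle version held 0%. The shares are Salmon's division of reads between near-identical transcripts, and they rest on 248 to 4166 Slc12a1 reads in a tubular library against 3482 to 145325 in a CD31+ library. They are a description without a test.

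**Figure D4:**
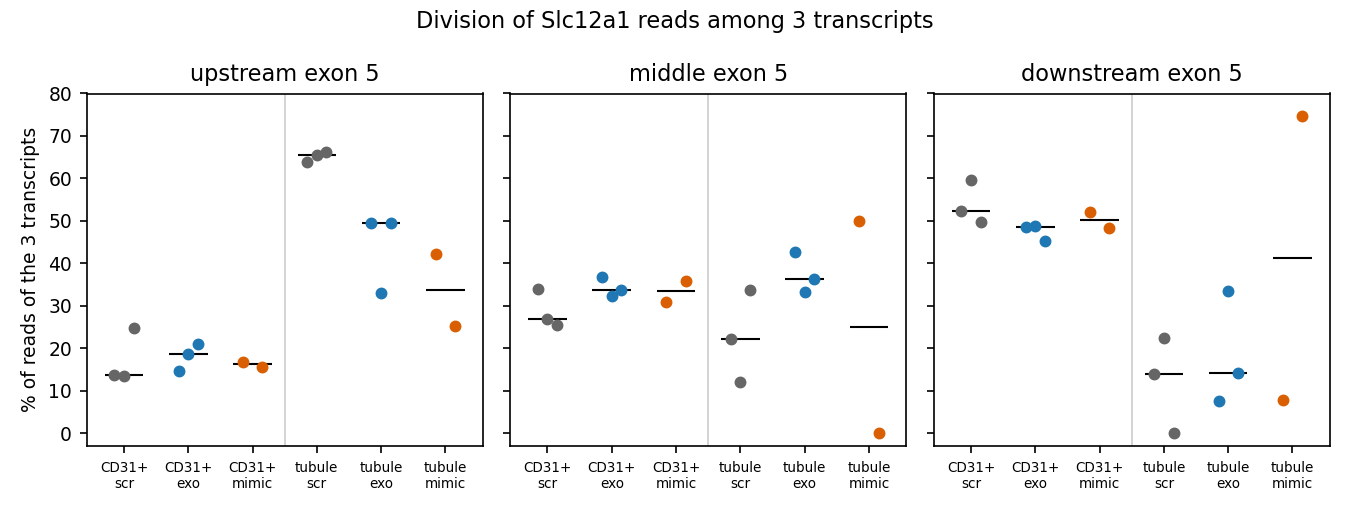
Share of the reads of the 3 full-length Slc12a1 transcripts held by each, in percent, per library; points are libraries and bars are group medians. The upstream version lies at 13.4 to 24.8% in CD31+ cells and at 25.3 to 66.3% in tubules. The downstream version lies at 45.2 to 59.7% in CD31+ cells and at 0 to 74.8% in tubules.

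The sham and untreated groups were read from the authors' deposited tables, in which a fold is the first-named group over the second. Comparisons that name the same group share its samples, and the folds appear shrunken toward 0. The sham and untreated samples are re-analyses of earlier ones. In any comparison of them with a treated group, in either cell type, the earlier series and the treatment cannot be told apart. In CD31+ cells, untreated injury against sham called none of the 6 members in the authors' deposited tables, where 4.41% of genes passed. The largest log2 fold was -1.20 for Ppp1r1b (adjusted p = 0.05085). Untreated injury against scrambled miRNA called none of the members and 0.757% of genes, with member log2 folds between -0.14 and 0.12 in the authors' deposited tables.

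Against exosomes, untreated CD31+ cells had lower Ppp1r1b, Kcnj1 and Bsnd in the authors' deposited tables, with log2 folds of -2.03, -1.34 and -1.30 (adjusted p = 0.00275, 0.02414 and 0.02815), where 3.77% of genes passed. Against mimic, 5 of the 6 were lower in untreated CD31+ cells in the authors' deposited tables, where 10.2% of genes passed. The log2 folds there were -2.95 for Ppp1r1b, -1.98 for Bsnd, -1.95 for Kcnj1, -1.70 for Slc12a1 and -1.07 for Umod (adjusted p = 2.446e-05 to 0.03351). Egf had a log2 fold of -0.95 (adjusted p = 0.1285). Exosomes against sham in CD31+ cells called none of the members and 6.73% of genes in the authors' deposited tables. Mimic against sham in CD31+ cells called only Umod among the members, at a log2 fold of 1.46 (adjusted p = 0.003952), and 11.6% of genes in the authors' deposited tables.

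In tubules the untreated injury group had more Umod, Slc12a1 and Egf than the scrambled group in the authors' deposited tables, with log2 folds of 2.50, 2.49 and 2.15 (adjusted p = 9.755e-05, 0.0001515 and 0.00585), where 17.8% of genes passed. Kcnj1, Bsnd and Ppp1r1b were not called there, at -0.44, -0.02 and 0.39. The same 3 genes were called against exosomes in the authors' deposited tables, with log2 folds of 2.70 for Umod, 1.45 for Slc12a1 and 1.54 for Egf, where 30.9% of genes passed. Against mimic, Umod was called at 2.37 and Slc12a1 at 1.18 was not (adjusted p = 0.05011), where 22.9% of genes passed in the authors' deposited tables. The untreated samples came from an earlier series, so the earlier series and the absence of an agent cannot be told apart.

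Untreated injury against sham in tubules called 1 member in the authors' deposited tables, Kcnj1, at -1.28 (adjusted p = 0.006276), where 20.2% of genes passed. Exosomes against sham called Slc12a1 at -1.57 and Umod at -1.18 (adjusted p = 0.01015 and 0.0324), where 11.2% of genes passed in the authors' deposited tables. Mimic against sham called no member and 1.03% of genes in the authors' deposited tables. Kcnj1 had a log2 fold of -1.16 there (adjusted p = 0.07621).

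**Figure D5:**
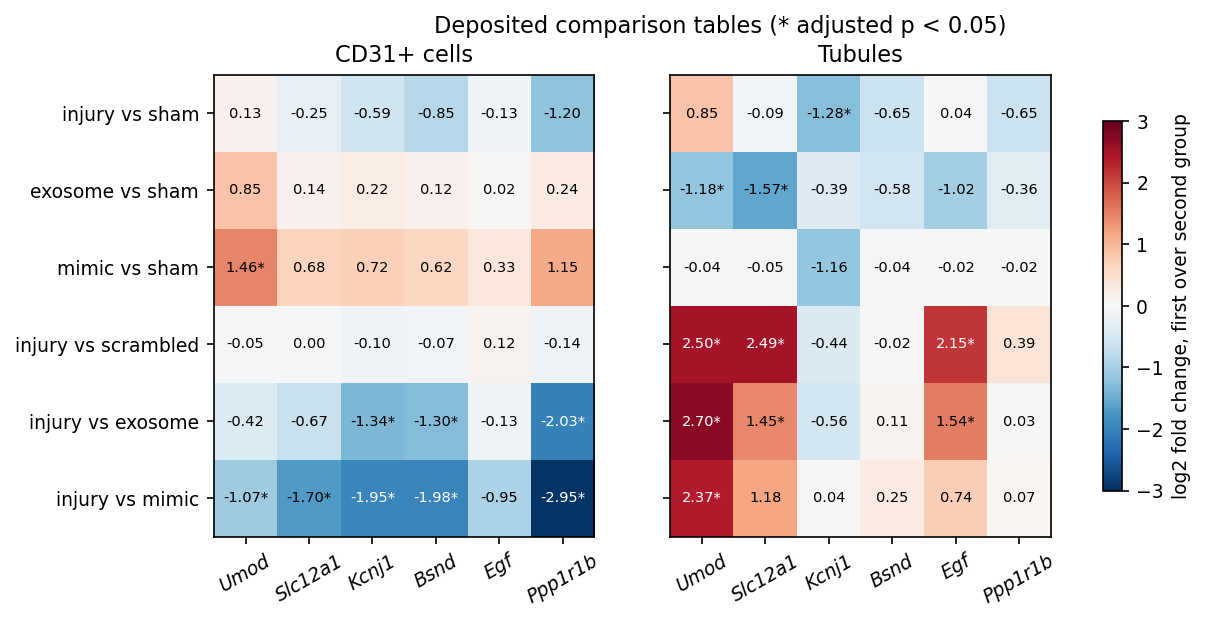
Log2 folds of the 6 genes in the authors' deposited tables, first-named group over second, for CD31+ cells (left) and tubules (right); colour gives the fold and an asterisk an adjusted p under 0.05. Folds of untreated injury against mimic are negative for all 6 genes in CD31+ cells, while Umod, Slc12a1 and Egf are positive in all 3 tubular comparisons of untreated injury with a treated group.

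The proteins that work beside the members were compared in the same way. Of 20 salt transport partners, 15 were higher and 3 lower in CD31+ than in tubular libraries, with a median log2 difference of 1.69. Claudin genes of the magnesium and calcium pathway were higher: Cldn19 by 4.41 ± 0.24 and Cldn16 by 4.05 ± 0.23. Cldn14 was also called higher, but it was at 0 TPM in every tubular exosome and mimic library, so no fold is given. Its CD31+ mimic libraries, at 0.291 to 0.671 TPM, overlapped its scrambled tubular libraries, at 0.364 to 0.603 TPM. The prostaglandin E2 receptor gene Ptger3 was higher by 4.31 ± 0.37. Cldn10, a claudin gene with one form in this segment and another in the proximal tubule, was not called, at -0.32 ± 0.14 (adjusted p = 0.05311). The 3 lower genes were Hpn, a membrane protease that acts on uromodulin, at -1.53 ± 0.13, Kcnj16, a potassium channel, at -0.94 ± 0.20, and Fxyd2, a sodium pump subunit, at -0.60 ± 0.12.

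Of the 20 partners, 2 were called in tubular exosomes against scrambled miRNA, both higher: Cldn10 at 1.17 ± 0.16 (adjusted p = 0.02264) and Fxyd2 at 0.89 ± 0.18 (adjusted p = 0.03471). Cldn10 stood at 93.0 ± 7.72 TPM (SD, n = 3) with scrambled miRNA and 166 ± 12.8 TPM (SD, n = 3) with exosomes in tubules. In the same comparison 1 of 10 proximal tubule markers was higher, Slc7a13 at 2.09 ± 0.40, a transporter of the last proximal segment. Of the 6 tubule injury markers 4 were lower, Havcr1 at -5.94 ± 1.16, Sox9 at -4.70 ± 0.95, Lcn2 at -4.09 ± 0.97, and Krt20, which was at 0 TPM in all 3 exosome libraries against 0.225 to 16.7 TPM with scrambled miRNA, so no fold is given. The summed level of the 6 in tubules was 283 to 1730.0 TPM with scrambled miRNA, 68.0 to 205 TPM with exosomes and 31.7 to 101 TPM with mimic. Of that sum Spp1 alone averaged 760, 114 and 63.6 TPM in the same order. The part of these markers in the member ratios was not tested.

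No partner was called in the other treatment comparisons. In CD31+ cells given mimic, Cldn10 and Cldn16 had log2 differences of 1.23 ± 0.27 and 0.63 ± 0.33 from scrambled miRNA, with adjusted p of 0.06772 and 0.3341. The median over the 20 partners was 0.79, with 15 positive. Among 10 other genes known from the thick ascending limb, all were positive in that comparison, with a median of 0.97, and none passed. Of these 10, 9 were higher in CD31+ than in tubular libraries. Among the largest differences were those of the transcription factor genes Sim2 at 5.36 ± 0.38 and Irx2 at 4.52 ± 0.32. Tmem207, a membrane protein gene, was higher by 4.91 ± 0.43, and Nos1, the nitric oxide synthase of the macula densa, by 4.19 ± 0.51. Nos1 was near the floor, at 0.189 to 0.689 TPM in CD31+ and 0 to 0.509 TPM in tubular libraries, ranges that overlapped.

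Of the 10 genes for other EGF family ligands, their receptors and the EGF-regulated magnesium channel, 9 were tested. Between cell types 5 were higher and 2 lower in CD31+ libraries. Erbb4, a receptor for the neuregulins, was higher by 4.60 ± 0.32, Tgfa, a ligand of the EGF receptor, by 3.48 ± 0.38, Trpm6, the magnesium channel, by 2.12 ± 0.25 and Btc, another ligand, by 1.26 ± 0.24. The EGF receptor gene Egfr was lower by the test, at -1.03 ± 0.18. None of the 9 was called between treatments, and their median was 0.11 in CD31+ mimic against scrambled miRNA. The summed level of this family without Egf was highest with scrambled miRNA in CD31+ cells, at 56.6 to 67.0 TPM, against 31.5 to 34.1 TPM with exosomes and 43.9 to 45.2 TPM with mimic. For DARPP-32, 7 of 8 genes of protein phosphatase 1 and the cyclic AMP kinase were tested. Between cell types 2 were higher, the inhibitor gene Ppp1r1a at 3.66 ± 0.26 and the kinase gene Prkacb at 0.39 ± 0.09, and 3 were lower, the phosphatase subunit genes Ppp1cc at -0.54 ± 0.09 and Ppp1ca at -0.37 ± 0.10 and the kinase gene Cdk5 at -0.40 ± 0.07. None was called between treatments, and their median was 0.16 in CD31+ mimic against scrambled miRNA.

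The genes most like the members were found by Pearson's r over the 16 libraries, after each cell type's mean log2 CPM had been subtracted, among 10501 other genes averaging at least 100 reads. The points share their libraries and depth, and r is a description. The 10 highest were Cdkl1 (0.98), Ptger3 (0.97), Gcgr (0.96), Fads6 (0.96), Mfsd4a (0.95), Efhd1 (0.95), Slc16a7 (0.94), Pla1a (0.94), Zscan26 (0.94) and Slc2a4 (0.94). Of these, Ptger3 and Gcgr encode the receptors for prostaglandin E2 and glucagon, and Slc2a4 and Slc16a7 encode transporters of glucose and of monocarboxylates. Each member was also set against the mean of the other 5. In the 8 CD31+ libraries r ran from 0.91 for Bsnd to 0.997 for Kcnj1, and in the 8 tubular libraries from 0.57 for Bsnd and Kcnj1 to 0.91 for Slc12a1.

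RefSeq promoter windows on GRCm38.p6 were at hand for 4 of the 6 members, Umod, Slc12a1, Kcnj1 and Egf, as 5 windows of which 2 belong to Egf. The 250 bases before each start were searched on both strands for GTTAAT, a short core that the kidney factor HNF1 is known to bind. It occurred in 1 of the 5 windows, that of Umod, 202 bases before the start, and in 6.43% of all 32851 windows. The Umod window, chr7:119479263-119479512 on the minus strand, is shown because it belongs to the most abundant member, with the core in capitals.
Umod upstream: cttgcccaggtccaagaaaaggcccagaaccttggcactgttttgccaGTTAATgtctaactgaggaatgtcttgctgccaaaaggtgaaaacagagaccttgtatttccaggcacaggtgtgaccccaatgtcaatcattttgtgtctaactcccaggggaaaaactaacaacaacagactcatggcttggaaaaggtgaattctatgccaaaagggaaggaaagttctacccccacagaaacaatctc
The match is a description of these letters, and no binding was measured here.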

How the data were processed

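Poly(A) RNA of CD31+ and microdissected tubular cells was sequenced in 16 libraries analysed here. The tools named in the submitters' processing notes are Salmon 0.13.1 and DESeq2, with the GRCm38 assembly. The estimated counts per transcript and the TPM values are Salmon output that the authors deposited, per the file headers. The log2 fold changes and standard errors, the p-values with their adjusted values, and the base mean signal over libraries were computed by the authors and deposited in 12 comparison tables. Those folds appear shrunken: in the authors' deposited tables the absolute fold divided by its standard error had medians of 0.0734 to 0.617, where the p-values imply 0.644 to 1.16.

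Transcripts (136202) were summed to 53392 genes by the identifiers in their names. Estimated counts were rounded for edgeR 4.0.16 in R 4.3.3 (filterByExpr with minimum count 10 and total 15, TMM, quasi-likelihood F tests, Benjamini-Hochberg adjustment over all genes at 0.05). Each cell type was fitted on its 8 libraries, and both together for the cell type difference and the interactions. Standard errors are the log2 fold over the root of F. Log2 CPM used a prior count of 2. The procedure was tested on simulated data. Alternatives were DESeq2 1.42.0, RLE and upper-quartile scaling, no filter, only the 2 groups compared, a replicate block, leaving out each library and, added after seeing the data, ratios over protein-coding transcripts alone. All 6 members are named in every comparison. Of each other list, at most the 4 genes past the threshold with the largest change are named, with Cldn16 and Cldn10; some genes that this rule names are not reported here. The 10 genes most like the members are named too. Hpn, Kcnj16, Egfr and Ppp1ca were added after their values were seen. The members and lists were chosen with earlier results of these data known. The labels do not say whether a library number shared by both cell types marks 1 mouse, and the fit of both took the libraries as independent. Marker lists were read as summed TPM.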

Additional observations from a re-analysis of the deposited data

How the results depend on the processing

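All 6 members stayed called as higher in CD31+ cells under all 21 alternatives. In the treatment comparisons and interactions, where no member was called, the count of members called rose under some alternatives and the cause was not tested. Without a low-count filter it was 3 for tubular exosomes against scrambled miRNA (7.11% of all genes called), 4 for tubular mimic against scrambled miRNA (4.78%) and 1 for tubular mimic against exosomes (1.4%). For the same comparisons in CD31+ cells it was 5 (3.05%), 6 (6.95%) and 2 (2.25%), and for the exosome and mimic interactions 2 (1.57%) and 3 (5.37%). With DESeq2 it was 3 for CD31+ exosomes (2.53%) and 6 for CD31+ mimic (8.3%) against scrambled miRNA and 2 for the mimic interaction (3.55%). For CD31+ mimic against scrambled miRNA it was 4 with only those groups in the fit (9.53%).

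Over all alternatives the CD31+ log2 folds against scrambled miRNA stayed positive. With exosomes they ran from 0.33 to 0.92 for Umod, 0.95 to 2.04 for Slc12a1, 0.79 to 1.43 for Kcnj1, 0.73 to 1.49 for Bsnd, 2.30 to 3.99 for Egf and 0.97 to 2.11 for Ppp1r1b. With mimic they ran from 0.82 to 1.41, 1.67 to 2.76, 1.36 to 1.99, 1.68 to 2.12, 3.50 to 5.03 and 2.19 to 3.13 in the same order. Protein-coding transcripts alone, an alternative chosen after seeing the data, kept the order of treatments described for the Umod and Kcnj1 ratios to Slc12a1.

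Leaving out any 1 library changed no count of members called. It turned the sign of uncalled log2 folds in tubules. For exosomes against scrambled miRNA these ran from -0.54 to 0.16 for Umod, -0.21 to 0.33 for Kcnj1 and -0.88 to 0.17 for Bsnd, and for mimic against scrambled miRNA from -0.997 to 0.71 for Umod. For mimic against exosomes they ran from -0.90 to 0.80 for Umod, -0.80 to 0.68 for Slc12a1, -1.20 to 0.33 for Bsnd, -0.34 to 0.90 for Egf and -0.72 to 0.68 for Ppp1r1b. For the exosome interaction they ran from -0.025 to 1.09 for Slc12a1 and -0.51 to 0.67 for Ppp1r1b.

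Deviations from the group means were correlated between same-numbered libraries, over 7 pairs each. By the number in the titles, r was -0.02 to 0.23 in CD31+ cells and -0.05 to 0.19 in tubules. In each of these, 1 pair had r over 0.1. Across cell types by library number, r was -0.11 to 0.09. Different-numbered pairs were not compared, so these values cannot decide whether the numbers pair the samples. The main fits took the samples as unpaired. With the title number as a replicate block, 4 members were called in CD31+ mimic against scrambled miRNA, among 661 genes (4.05%). With that block the tubular log2 fold of Umod for mimic against scrambled miRNA was -0.32, and for mimic against exosomes the values were -0.16 for Umod, -0.29 for Slc12a1, -0.35 for Egf and -0.17 for Ppp1r1b. The low tubular reads of Ppp1r1b and Bsnd limit what those libraries can show.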
